A study of Mus musculus with 18 samples.

Results

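The 9 genes described here encode S100 proteins and annexins: S100a6, S100a10, S100a11, S100a13 and S100a16, and Anxa1, Anxa2, Anxa3 and Anxa5. They were taken by symbol from a deposited table of 21638 genes, and all 9 were found and passed the filter on low counts. S100a6 leads the set because its level differed between the libraries labelled with 2 endothelial deletions, Hdac2 ECKO and Ezh2 ECKO. The lead gene was chosen by that difference in its counts, which is therefore given below as a description without a test. Most S100 proteins are small dimeric calcium sensors with paired EF-hand motifs, in which calcium binding exposes a surface that docks to partner proteins. Annexins are calcium-dependent proteins that bind acidic phospholipids on the inner face of membranes. The families meet in complexes. A dimer of S100a10 holds Anxa2 at the plasma membrane, where it serves as a surface receptor for plasminogen and tissue plasminogen activator in endothelium. S100a11 binds Anxa1.

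Messenger RNA was measured in cortical endothelial cells of adult mice, sorted as positive for CD31 and negative for CD41 and CD45. Stroke was modelled by middle cerebral artery occlusion (MCAO), and cells were taken on day 7. Each of the 6 groups had 3 libraries: sham and MCAO mice labelled WT, each with the operated (ipsilateral) and the opposite (contralateral) side, and occluded mice labelled Hdac2 ECKO or Ezh2 ECKO, with the ipsilateral side. ECKO mice carried floxed Hdac2 (encoding a histone deacetylase) or floxed Ezh2 (encoding the Polycomb H3K27 methyltransferase) with the tamoxifen-inducible recombinase CreERT2 under the Cdh5 promoter, which is active in endothelium. All 6 groups, the WT mice included, are labelled as given tamoxifen at 75 mg/kg. The labels do not say whether the WT mice carried the recombinase or a floxed allele, how many mice gave a library, or whether same-numbered sides came from the same mouse. The p-values below therefore measure the spread between these libraries.

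Total counts ran from 25791401 to 57576255 per library. All 12 endothelial markers were detected in every group, at a summed 8990 to 12734 CPM (counts in each 1000000 of the scaled library total). The deleted genes did not check the labels. The mean level of Hdac2 was 76.8 ± 16.8 CPM under its own deletion label and 82.9 ± 14.0 CPM in MCAO ipsilateral, and that of Ezh2 was 13.4 ± 5.76 CPM under its label and 6.44 ± 1.77 CPM in MCAO ipsilateral (SD, n = 3 each). Under the Ezh2 ECKO label, Ezh2 and Hdac2 (138 ± 19.0 CPM) both lay above all MCAO ipsilateral libraries. The table gives 1 value per gene, so loss of a floxed exon was not analysed here. Every direction given for these libraries rests on their labels. Libraries also differed in counts on 1466 olfactory and vomeronasal receptor genes, which endothelium does not use. This receptor background, as a share of the unscaled total, was 152 to 716 CPM in 16 libraries, 1889 in MCAO contralateral replicate 1 and 2083 in the library labelled Ezh2 ECKO replicate 2. Several results are also given without the last pair. Correlations between members, and of members with this background, were computed with both libraries in.

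Of the S100 members, all 5 lie on chromosome 3 (GRCm38, plus strand). S100a13 (90514435 to 90524581), S100a16 (90537254 to 90543151) and S100a6 (90612882 to 90624181) are near neighbours, with S100a11 (93520488 to 93526287) and S100a10 (93555080 to 93564643) further along. Anxa5 is on the minus strand of the same chromosome (36448923 to 36475894). Anxa1 is on chromosome 19 (20373428 to 20390944, minus), Anxa2 on chromosome 9 (69453620 to 69491795, plus) and Anxa3 on chromosome 5 (96793339 to 96845966, plus). GENCODE M21 places the antisense gene Gm16144 over Anxa2 and a noncoding gene, 1500015L24Rik, over Anxa1 on the other strand. No strand setting is given in the sources used here, so reads of such partners cannot be told apart. S100a11 has a processed copy, S100a11-ps, and its counts are uncertain to the extent that reads are shared.

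The windows upstream of 4 members are shown because these genes, 3 of which lie on chromosome 3, did not share 1 pattern below: S100a6 and S100a11 varied alike over the libraries, Anxa2 passed the test in the libraries labelled Ezh2 ECKO, and S100a13 was not low in those libraries as S100a6 was. Each is the 250 bases before the start annotated by RefSeq (GRCm38.p6), on the plus strand, at chr3:90612644-90612893, chr3:93520246-93520495, chr9:69453433-69453682 and chr3:90514185-90514434 in that order. The RefSeq starts of S100a6, S100a11 and Anxa2 lie downstream of the GENCODE gene starts given above, so the ends of these windows reach into the GENCODE genes. Capitals mark matches on either strand to the letters TGANTCA of an AP-1 site, GGAATG of a TEAD site, GGGCGG of the box bound by Sp1 proteins (GC box) and TATAAA of the TATA box. No match overlapped another.
S100a6: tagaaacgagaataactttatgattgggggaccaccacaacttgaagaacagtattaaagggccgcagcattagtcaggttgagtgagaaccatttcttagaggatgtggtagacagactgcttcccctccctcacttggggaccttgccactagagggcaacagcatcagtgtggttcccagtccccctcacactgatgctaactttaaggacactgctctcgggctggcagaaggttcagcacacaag
S100a11: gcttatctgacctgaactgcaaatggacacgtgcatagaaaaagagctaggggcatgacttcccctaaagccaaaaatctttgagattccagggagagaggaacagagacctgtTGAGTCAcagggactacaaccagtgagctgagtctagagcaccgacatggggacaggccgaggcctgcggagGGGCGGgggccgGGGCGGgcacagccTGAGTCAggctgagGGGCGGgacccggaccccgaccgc
Anxa2: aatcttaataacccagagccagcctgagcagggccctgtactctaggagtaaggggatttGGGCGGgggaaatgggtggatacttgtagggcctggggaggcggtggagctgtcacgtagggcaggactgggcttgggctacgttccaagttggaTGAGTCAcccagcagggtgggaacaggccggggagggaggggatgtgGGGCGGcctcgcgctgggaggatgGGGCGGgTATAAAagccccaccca
S100a13: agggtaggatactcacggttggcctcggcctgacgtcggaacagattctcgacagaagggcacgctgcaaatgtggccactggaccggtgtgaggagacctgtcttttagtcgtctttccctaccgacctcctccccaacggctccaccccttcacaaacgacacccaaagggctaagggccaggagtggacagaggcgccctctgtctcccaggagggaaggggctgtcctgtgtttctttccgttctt
The S100a6 and S100a13 windows held none of the 4 motifs. The S100a11 window held 2 AP-1 and 3 GC box matches, and the Anxa2 window held 1 AP-1, 3 GC box and 1 TATA box match. Over all 7 members with an entry in the table (8 windows, since S100a16 has 2 starts), 3 windows held an AP-1 match, 1 a TEAD match, 3 a GC box and 2 a TATA box. Of all 32851 windows of this length, 6.75% held an AP-1 match, 12.6% a TEAD match, 32.7% a GC box and 12.4% a TATA box. The S100a6 window had 3 CG pairs and that of S100a13 had 13, where the median of all windows was 6. These are matches of letters, not sites shown to be bound.

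Per kilobase of exon length, the members covered a wide range. Averaged over the 18 libraries, S100a11 (1485 CPM per kb) and S100a13 (1271) were the most abundant, followed by Anxa3 (242), S100a16 (211), Anxa5 (195), S100a10 (147), Anxa2 (64.2), S100a6 (47.1) and Anxa1 (20.5). S100a6 was thus among the least abundant members, and its level spread the most. Its highest library was 56.3 times its lowest, against 2.86 times for Anxa3, the steadiest member, and 19.0 times for S100a11, the next most variable. The S100a6 extremes were libraries labelled Hdac2 ECKO (318 CPM) and Ezh2 ECKO (5.65 CPM). The difference between these labels chose S100a6, so its rank in spread is a description and not a separate result. No member was near the limit of detection, since the smallest count of any member in any library was 202.

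S100a6 encodes calcyclin, an S100 protein long known from growth-stimulated cells. The libraries labelled Hdac2 ECKO held 318, 99.5 and 67.1 CPM of S100a6, and those labelled Ezh2 ECKO held 22.8, 8.08 and 5.65 CPM. Every library with the first label lay above every one with the second, and 1 library of the first label stood far above its group. MCAO ipsilateral libraries held 76.5, 78.7 and 64.2 CPM, and MCAO contralateral ones 63.0, 78.4 and 48.2 CPM. Sham contralateral libraries held 60.1, 54.3 and 43.7 CPM, and sham ipsilateral ones 38.0, 8.87 and 24.5 CPM. The order of group means was therefore Ezh2 ECKO (12.2 ± 9.29 CPM), sham ipsilateral (23.8 ± 14.6), sham contralateral (52.7 ± 8.33), MCAO contralateral (63.2 ± 15.1), MCAO ipsilateral (73.1 ± 7.80) and Hdac2 ECKO (161 ± 136; SD, n = 3 each). Of the 5 pairs of neighbours in this order, only sham ipsilateral and sham contralateral did not overlap. In sorted cells measured in bulk, fewer cells of an S100a6-rich kind and less S100a6 RNA per cell cannot be told apart.

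**Figure D1:**
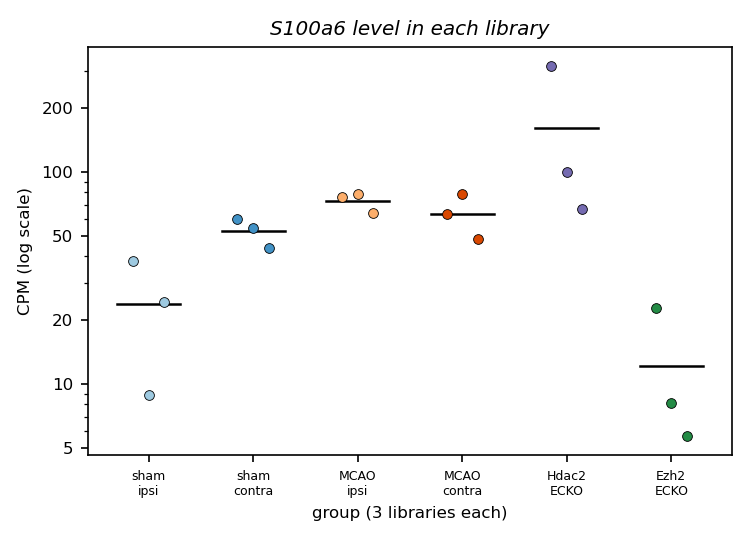
S100a6 level in each library (points, CPM on a log axis) for the 6 groups, with the group mean as a bar. The 3 libraries labelled Ezh2 ECKO (5.65 to 22.8 CPM) lie below all MCAO ipsilateral libraries (64.2 to 78.7), while those labelled Hdac2 ECKO run from 67.1 to 318.

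S100a10, S100a11 and S100a16 were also low under the Ezh2 ECKO label. S100a10, the partner that holds Anxa2 at the membrane, stood at 73.1, 55.0 and 56.8 CPM in those libraries and at 247, 214 and 97.6 CPM in MCAO ipsilateral. The libraries labelled Hdac2 ECKO had 384, 222 and 108 CPM of S100a10, which overlaps the MCAO ipsilateral range. S100a11, which binds Anxa1 and takes part in membrane resealing, stood at 415, 93.0 and 248 CPM under the Ezh2 ECKO label and at 1103, 996 and 933 CPM in MCAO ipsilateral. Under the Hdac2 ECKO label S100a11 had 1769, 1213 and 462 CPM, the largest SD in CPM of any group for this gene (656), while highest over lowest was larger under the Ezh2 ECKO label. For both genes the Ezh2 ECKO libraries lay wholly below MCAO ipsilateral, and the Hdac2 ECKO libraries overlapped it.

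S100a16, a widely expressed member whose calcium binding is weaker than that of its relatives, stood at 154, 95.7 and 76.9 CPM under the Ezh2 ECKO label. MCAO ipsilateral libraries had 456, 698 and 352 CPM of S100a16, and those labelled Hdac2 ECKO had 304, 357 and 325 CPM. Its lowest value outside the Ezh2 ECKO libraries was 105 CPM, in MCAO contralateral replicate 1, a library of high receptor background. S100a13, which assists the release of Fgf1, a growth factor that lacks a signal peptide, differed from the other 4. It stood at 1377, 381 and 881 CPM under the Ezh2 ECKO label, a range that covers the MCAO ipsilateral values of 768, 740 and 722 CPM. The libraries labelled Hdac2 ECKO had 2058, 1470 and 682 CPM of S100a13.

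Among the annexins, Anxa2 and Anxa5 were low under the Ezh2 ECKO label in all 3 libraries. Anxa2, the plasminogen and tissue plasminogen activator receptor of endothelium, stood at 106, 93.9 and 110 CPM there, at 463, 596 and 270 CPM in MCAO ipsilateral, and at 225, 191 and 152 CPM under the Hdac2 ECKO label. Both labels thus lay below all MCAO ipsilateral libraries for Anxa2. Anxa5, which binds phosphatidylserine and shields it from clotting factors, stood at 205, 113 and 131 CPM under the Ezh2 ECKO label and at 522, 692 and 291 CPM in MCAO ipsilateral. Under the Hdac2 ECKO label Anxa5 had 314, 273 and 469 CPM, within or next to the MCAO range. Anxa3 stood at 660, 479 and 665 CPM under the Ezh2 ECKO label, against 1330, 1355 and 733 CPM in MCAO ipsilateral. For Anxa1, an anti-inflammatory ligand of formyl peptide receptors, the Ezh2 ECKO libraries had 33.3, 23.9 and 110 CPM and the MCAO ipsilateral ones 51.4, 48.8 and 87.1 CPM, so that the groups overlapped.

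**Figure D2:**
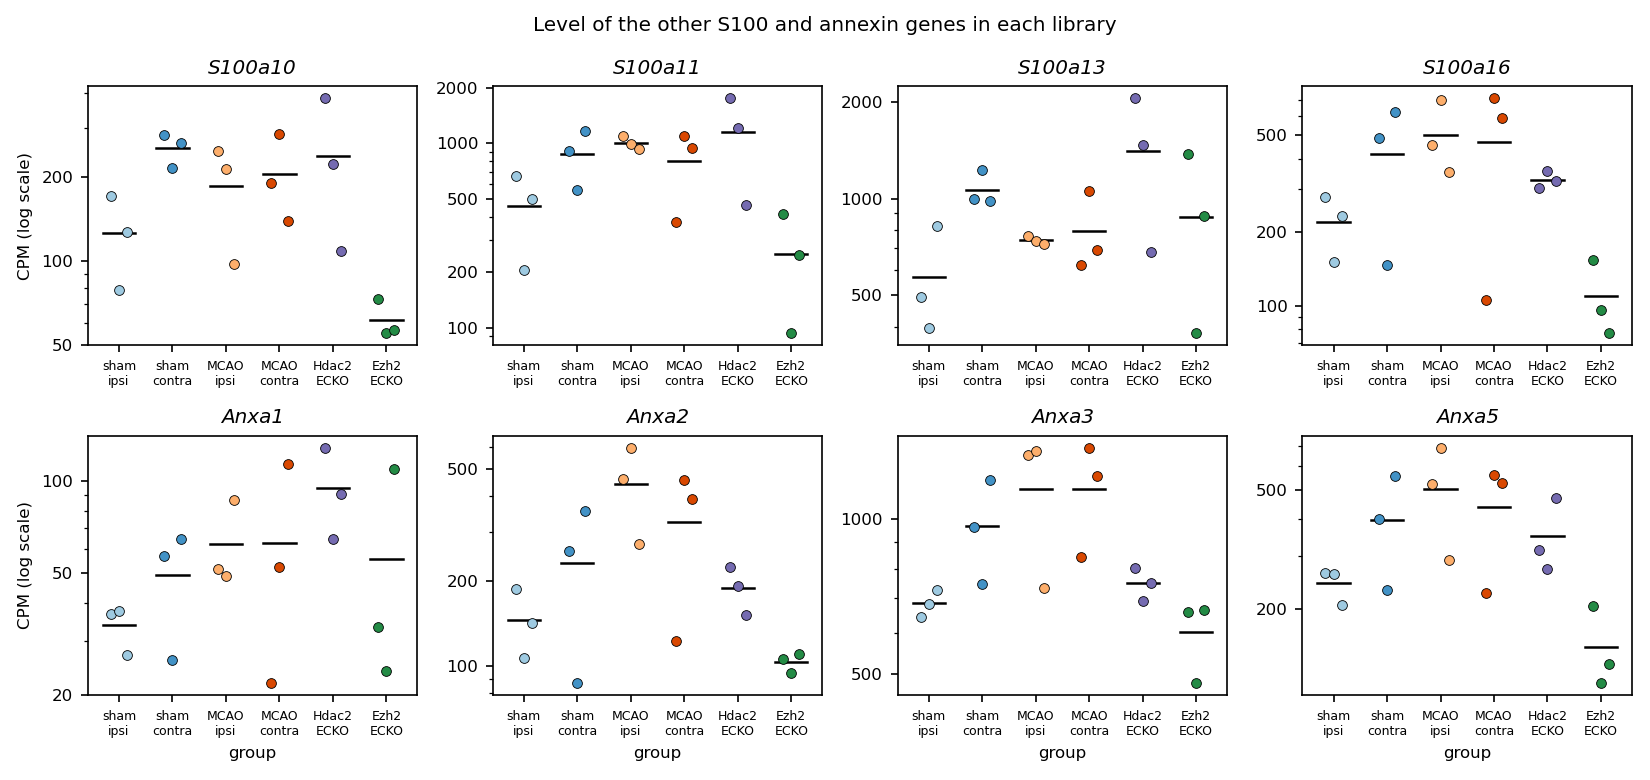
Level of the 8 members other than S100a6 in each library (points, CPM on log axes with a range of their own per gene) for the 6 groups, with group means as bars. S100a10, S100a11, S100a16, Anxa2, Anxa3 and Anxa5 lie below all MCAO ipsilateral libraries under the Ezh2 ECKO label, and S100a13 and Anxa1 do not.

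The libraries labelled Ezh2 ECKO were compared with MCAO ipsilateral libraries, both from the injured side. Anxa2, S100a16 and Anxa5 were lower under the label. The log2 fold change was -2.10 ± 0.48 (SE) for Anxa2, a level 4.30-fold lower (adjusted p = 0.0373, edgeR quasi-likelihood test, Benjamini-Hochberg over all 17094 genes tested). It was -2.20 ± 0.55 for S100a16 (4.61-fold lower, adjusted p = 0.0479) and -1.74 ± 0.41 for Anxa5 (3.35-fold lower, adjusted p = 0.0402). These were 3 of the 8 members other than S100a6 called lower, where 1.23% of all genes were called lower and 1.46% were called in either direction. These libraries also enter the contrast between the deletion labels that chose the set's lead gene, so the count is given beside that rate as a description and not as independent support. S100a10 (-1.59 ± 0.43, adjusted p = 0.0594) and S100a11 (-2.005 ± 0.55, adjusted p = 0.0604) did not pass the threshold of 0.05, nor did Anxa3 (-0.92 ± 0.31, adjusted p = 0.114). Groups did not overlap, with the Ezh2 ECKO label lower, for 6 of these 8 members and for 15.3% of all genes. The median of the 8 was -1.67, against 0.17 over all genes. With RLE in place of TMM scaling, the median of all genes was 0.36, the split of calls over all genes changed from 39 higher and 211 lower to 119 and 249, and S100a11 passed as well (adjusted p = 0.0430). DESeq2 called these 3 members and also S100a10 and S100a11 (adjusted p = 0.0249 and 0.00938). For S100a6, whose choice used these libraries, the log2 fold change of -2.59 ± 0.59 (6.00-fold lower) is a description.

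S100a13 and Anxa1 gave no detectable difference in that comparison. The log2 fold change of S100a13 was 0.24 ± 0.42 (95% interval -0.58 to 1.07, adjusted p = 0.754), an interval that leaves out a fall of the size seen for its neighbour S100a16. For Anxa1 it was -0.17 ± 0.55 (-1.25 to 0.92, adjusted p = 0.878) and turned to 0.01 with RLE scaling. Without the library labelled Ezh2 ECKO replicate 3, which had the highest Anxa1, it was -1.15 (adjusted p = 0.299). That value is not past the threshold either.

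**Figure D3:**
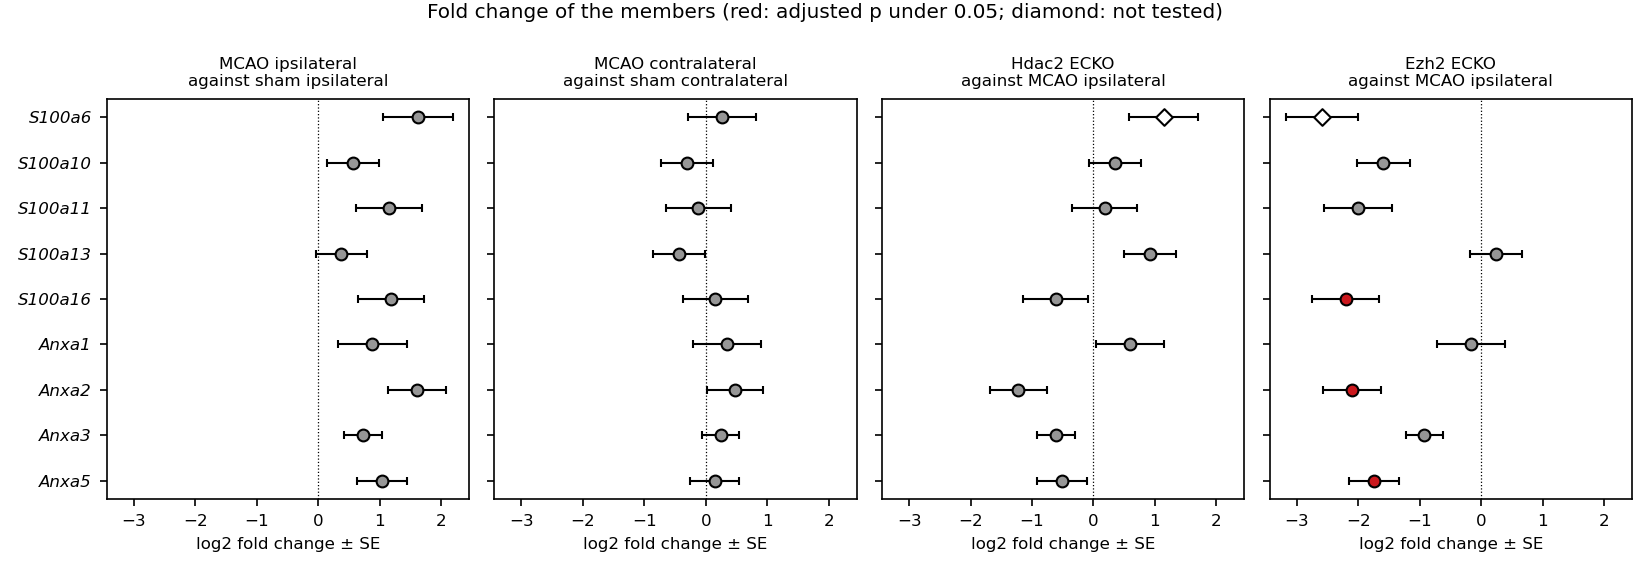
Log2 fold change (point) ± SE (bar) of each member in 4 comparisons on a shared axis; red points passed an adjusted p of 0.05, grey points did not, and diamonds (S100a6 under the ECKO labels) were not tested. Under the Ezh2 ECKO label Anxa2, S100a16 and Anxa5 passed at -2.10, -2.20 and -1.74, while S100a13 and Anxa1 lie near 0.

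Leaving out single libraries ended most of the 3 calls under the Ezh2 ECKO label, while the values moved little (from -2.40 to -1.83 for Anxa2, -2.54 to -1.89 for S100a16 and -2.06 to -1.44 for Anxa5). Anxa2 and S100a16 passed when MCAO ipsilateral replicate 3 was left out, but not when any other library of the comparison was (adjusted p from 0.0623 to 0.191 for Anxa2 and from 0.0553 to 0.238 for S100a16). Anxa5 passed without that library (adjusted p = 0.0219) and without the one labelled Ezh2 ECKO replicate 1 (0.0441), and otherwise gave 0.105 to 0.230. With both libraries of highest receptor background left out, the calls stood, at -2.01 for Anxa2 (adjusted p = 0.0209), -2.10 for S100a16 (0.0227) and -1.55 for Anxa5 (0.0314).

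Several other measures moved with these differences. Receptor background was 154 to 296 CPM in MCAO ipsilateral libraries and 268, 2083 and 600 CPM under the Ezh2 ECKO label. All 9 members were lower where it was higher, with Pearson r over the 18 libraries from -0.832 (S100a11) to -0.496 (Anxa1); the libraries with more background were also mostly those with fewer counts. With log2 background as a covariate, Anxa2 was at -1.33 (adjusted p = 0.167), S100a16 at -1.27 (0.235) and Anxa5 at -1.29 (0.134), and S100a6 at -2.17, so that no member was called. Library Ezh2 ECKO replicate 1 had a background within the MCAO ipsilateral range, and its S100a6, S100a16, Anxa2 and Anxa5 (22.8, 154, 106 and 205 CPM) were below all MCAO ipsilateral libraries. This is 1 library, and how much of the members' differences goes with background was not tested beyond the covariate. In MCAO contralateral replicate 1, with a background of 1889 CPM, S100a16 was at 105 CPM, Anxa2 at 123, Anxa5 at 227 and S100a11 at 375, each below both other libraries of its group, while S100a6 was at 63.0 CPM, between them.

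**Figure D4:**
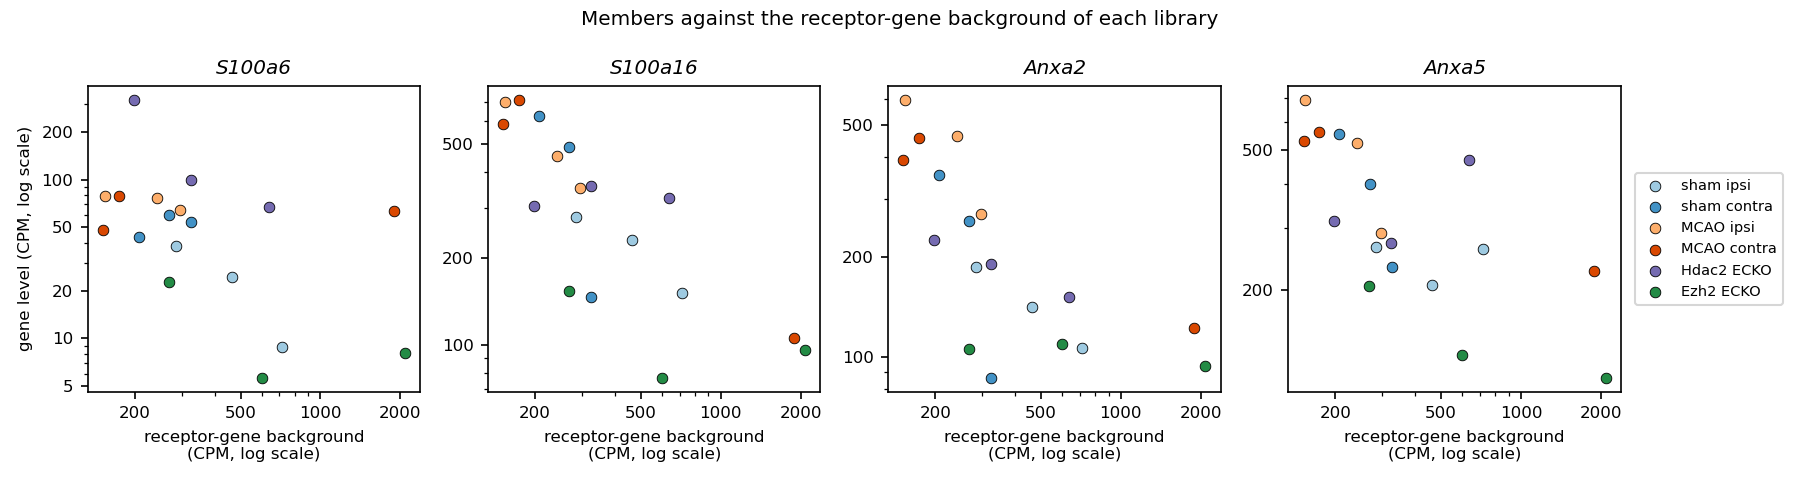
Level of S100a6, S100a16, Anxa2 and Anxa5 (CPM, log axes) against the receptor background of each of the 18 libraries (CPM of the unscaled total, log axis), coloured by group. Levels are lower where background is higher (r from -0.789 for S100a16 to -0.531 for S100a6), and the libraries labelled Ezh2 ECKO, at backgrounds of 268, 600 and 2083 CPM, lie below the MCAO ipsilateral ones in all 4 panels.

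Transcript length and vessel markers also moved with the comparison. When the tested genes were put in 4 classes of equal size by exon length, the shortest class (36 to 2685 bases), which holds all 5 S100 members and Anxa5, had a median log2 fold change of -0.39 under the Ezh2 ECKO label, and the longest class 0.55. Among genes averaging 10 CPM or more, these medians were -0.75 and 0.38. The shortest members were S100a11 (511 bases) and S100a13 (715 bases), and their log2 fold changes under this label were -2.005 and 0.24. The other members of the shortest class were at -2.59 (S100a6), -1.59 (S100a10), -2.20 (S100a16) and -1.74 (Anxa5). Summed levels of the 7 venous markers were 584 to 912 CPM in MCAO ipsilateral and 320 to 499 under the Ezh2 ECKO label, those of the 8 arterial markers 340 to 542 and 339 to 467, and those of the 6 red cell genes 38268 to 65450 and 70.6 to 671. Neutrophil markers (8 genes) summed to 6.39 to 13.0 CPM in MCAO ipsilateral and 3.24 to 4.98 CPM under the Ezh2 ECKO label, without overlap, and microglia and macrophage markers (11 genes) to 9.55 to 29.1 and 12.1 to 26.2 CPM. None of the 11 was at 0 in MCAO ipsilateral or under the Ezh2 ECKO label, and Camp was the only neutrophil marker at 0 in MCAO ipsilateral. The part of length, venous cells, red cell RNA and neutrophil RNA in the members' differences was not tested.

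The libraries labelled Hdac2 ECKO were compared with the same MCAO ipsilateral libraries, so the 2 comparisons share their controls. No member was called, where 2 of 17094 genes (0.0117%) were called by edgeR's quasi-likelihood test. At an unadjusted p under 0.05, 2 of the 8 members other than S100a6 differed, where 9.85% of all genes did. These were Anxa2 at -1.23 ± 0.46 (2.34-fold lower, adjusted p = 0.426), with no overlap of the groups (lower in 10.3% of all genes), and S100a13 at 0.92 ± 0.42 (adjusted p = 0.496), whose libraries overlapped. DESeq2 called 244 genes and no member. The log2 fold change of S100a6 was 1.14 ± 0.56 and was carried by 1 library: it was 0.15 without the one labelled Hdac2 ECKO replicate 1 (318 CPM). Side by side, Anxa2 was lower under both labels (-1.23 and -2.10), whereas S100a6 (1.14 and -2.59), S100a10 (0.35 and -1.59) and S100a11 (0.18 and -2.005) did not share a sign. Without the library labelled Hdac2 ECKO replicate 1, S100a10 was at -0.22 and S100a11 at -0.30 under the Hdac2 ECKO label, so that only S100a6 of these 3 kept its sign. Receptor background was 198 to 639 CPM under this label and 154 to 296 CPM in MCAO ipsilateral. Arterial markers summed to 961 to 1075 and 340 to 542 CPM, without overlap, and venous markers to 683 to 758 and 584 to 912. Red cell genes summed to 49333 to 297895 and 38268 to 65450 CPM. The shortest class of genes had a median of -0.10 and the longest 0.29. The part of each was not tested.

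Between the deletion labels, the contrast that chose S100a6, its level was higher under the Hdac2 ECKO label by 3.73 ± 0.62 on the log2 scale, a fold of 13.2. The value was 2.73 without the library labelled Hdac2 ECKO replicate 1, 4.55 without the one labelled Ezh2 ECKO replicate 1 and 3.50 without the 2 libraries of highest background. S100a11 followed at 2.19, S100a10 at 1.95, S100a16 at 1.59 and Anxa5 at 1.23, and the smallest was Anxa3 at 0.32. Groups did not overlap for 7 of the 9 members and for 6.87% of all genes in this direction, and 0.123% of all genes were called. All 9 values are descriptions, since the lead gene was chosen by this contrast. Under the Hdac2 ECKO label the arterial markers summed to 961 to 1075 CPM and the red cell genes to 49333 to 297895, against 339 to 467 and 70.6 to 671 CPM with the Ezh2 ECKO label. Venous markers summed to 683 to 758 against 320 to 499 CPM, and neutrophil markers to 5.85 to 9.24 against 3.24 to 4.98 CPM. Neither set overlapped between the labels. Receptor background was 198 to 639 against 268 to 2083 CPM. The shortest class of genes had a median of 0.20 in this contrast and the longest -0.31. The part of each in the S100a6 difference was not tested.

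MCAO ipsilateral libraries were compared with sham ipsilateral ones for the effect of stroke itself. No member was called, and neither was any other gene (0.0%; 7.08% of genes at an unadjusted p under 0.05; edgeR's quasi-likelihood test), while DESeq2 called 69 genes and no member. S100a6 was at 1.62 ± 0.57 (3.07-fold higher, adjusted p = 0.588) and Anxa2 at 1.61 ± 0.47 (3.06-fold, adjusted p = 0.509). The Anxa2 libraries had 187, 106 and 141 CPM in sham ipsilateral, below the 270 to 596 CPM of MCAO ipsilateral. All 9 log2 fold changes were above 0, with S100a16 at 1.19, S100a11 at 1.15, Anxa5 at 1.04, Anxa1 at 0.88, Anxa3 at 0.73, S100a10 at 0.57 and S100a13 at 0.38. Their median was 1.04, against -0.09 over all genes. The groups did not overlap, with MCAO higher, for 7 of the 9 members and for 13.3% of all genes; S100a10 and S100a13 overlapped. At an unadjusted p under 0.05, 6 of the 9 were higher, against 4.26% of all genes.

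Background, length and venous markers moved in this comparison too. Receptor background was 285 to 716 CPM in sham ipsilateral and 154 to 296 CPM in MCAO ipsilateral. With it as a covariate S100a6 was at 1.36 and Anxa2 at 1.18. The shortest class of genes had a median of 0.44 and the longest -0.42. Among genes averaging 10 CPM or more, these medians were 0.64 and -0.33. Venous markers summed to 376 to 483 CPM in sham ipsilateral against 584 to 912 CPM in MCAO ipsilateral. Microglia and macrophage markers summed to 5.08 to 8.89 CPM in sham ipsilateral and 9.55 to 29.1 in MCAO ipsilateral, neutrophil markers to 4.60 to 5.81 and 6.39 to 13.0, fibroblast markers (7 genes) to 5.75 to 7.10 and 7.55 to 15.8, and mural markers (7 genes) to 96.6 to 147 and 36.7 to 88.1, none of which overlapped. The part of each in the members' values was not tested.

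With all libraries in the fit, the members showed no such pattern on the contralateral side. MCAO against sham contralateral gave log2 fold changes from -0.43 (S100a13) to 0.48 (Anxa2), with a median of 0.16 against 0.17 over all genes, and every member overlapped between the groups. No member was called (0.0% of all genes; 4.41% and no member at an unadjusted p under 0.05; edgeR's quasi-likelihood test), and DESeq2 called 26 genes and no member. Groups did not overlap in 3.65% of all genes with MCAO higher and in 6.0% with it lower. S100a6 was at 0.26 ± 0.55 (95% interval -0.82 to 1.35, adjusted p = 0.951). With 1 library left out, values ran from 0.084 to 0.94 for Anxa2, -0.41 to 0.77 for Anxa1 and -0.27 to 0.65 for S100a16. Those of S100a10 ran from -0.65 to -0.093 and those of S100a13 from -0.71 to -0.26. Without MCAO contralateral replicate 1, a library of high receptor background, S100a11 was at 0.24. Over both sides together, 0.152% of genes were called and no member was (4 of 9 members at an unadjusted p under 0.05, all higher, against 5.52% of genes higher and 9.09% in either direction), with Anxa2 closest at 1.04 ± 0.33 (adjusted p = 0.233). Anxa2 passed when MCAO contralateral replicate 1 was left out (1.26, adjusted p = 0.0329). The labels do not say if same-numbered sides share a mouse, and the fit over both sides treats all libraries as independent. MCAO ipsilateral against MCAO contralateral gave values from -0.14 (S100a10) to 0.45 (Anxa2), no member was called (0.0% of all genes; 3.08% and no member at an unadjusted p under 0.05; 6 genes by DESeq2), and all 9 overlapped, where 3.49% of genes were wholly higher and 1.88% wholly lower.

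No member passed the test between the sham sides. All 9 log2 fold changes of sham ipsilateral against sham contralateral were below 0, from -0.50 (Anxa3) to -1.15 (S100a6), with a median of -0.90 against 0.07 over all genes. None of the members was called by edgeR's quasi-likelihood test (0.0% of all genes; 6 genes by DESeq2), and S100a10 and S100a13 had an unadjusted p under 0.05, as did 1.85% of all genes. The groups did not overlap for S100a6, S100a10, S100a13 and Anxa3, or 4 of 9, against 6.98% of all genes. S100a10 stood at 171, 79.0 and 127 CPM in sham ipsilateral and at 282, 214 and 265 CPM in sham contralateral libraries. S100a13 stood at 495, 397 and 821 CPM ipsilaterally and at 994, 1223 and 980.1 CPM contralaterally. For both genes every ipsilateral sham library was below every contralateral one. S100a16, Anxa2 and Anxa5 overlapped instead, because sham contralateral replicate 2 was low in each (147, 86.7 and 232 CPM, against 488 and 624, 257 and 354, and 399.96 and 555 CPM in its group). An interaction term asked if the sides differed by another amount after MCAO than after sham surgery. It called no gene (0.0%; 3.38% and no member at an unadjusted p under 0.05; 6 genes by DESeq2), and the members' adjusted p ran from 0.941 to 0.946 in edgeR's quasi-likelihood test. Its 9 values ran from 0.49 (Anxa3) to 1.36 (S100a6), all above 0. These comparisons share the sham ipsilateral libraries with the occlusion comparison above, so their values are not separate evidence. Venous markers summed to 376 to 483 CPM in sham ipsilateral and 509 to 539 in sham contralateral, without overlap. Arterial markers summed to 502 to 895 and 823 to 1014 CPM, and red cell genes to 19225 to 59006 and 72028 to 129596. The shortest class of genes had a median of -0.30 between the sham sides, or -0.55 among genes averaging 10 CPM or more. In the interaction these medians were 0.39 and 0.66. The part of each was not tested. Sham ipsilateral replicate 2, which had the lowest S100a6 of the sham libraries (8.87 CPM), also had their highest receptor background (716 CPM).

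The Anxa2 to S100a10 count ratio was examined because the proteins form 1 complex; it was chosen after values were seen, and no scaling between libraries enters it. The ratio was 1.87, 2.78 and 2.77 in MCAO ipsilateral libraries, against 1.09, 1.35 and 1.11 in sham ipsilateral. It was 0.586, 0.864 and 1.40 under the Hdac2 ECKO label and 1.44, 1.71 and 1.93 under the Ezh2 ECKO label. MCAO ipsilateral thus lay above sham ipsilateral (log2 difference 1.05) and above the Hdac2 ECKO label, whose difference was -1.45. Both gave a two-sided exact permutation p of 0.1, the smallest that 3 against 3 libraries allow, and 0.3 after adjustment over 6 comparisons. The libraries labelled Ezh2 ECKO were 0.53 lower than MCAO ipsilateral on the log2 scale and overlapped it (exact permutation p = 0.2, adjusted 0.4). Contralateral ratios were 0.646, 1.60 and 2.83 in MCAO and 0.911, 0.404 and 1.34 in sham, which overlapped.

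**Figure D5:**
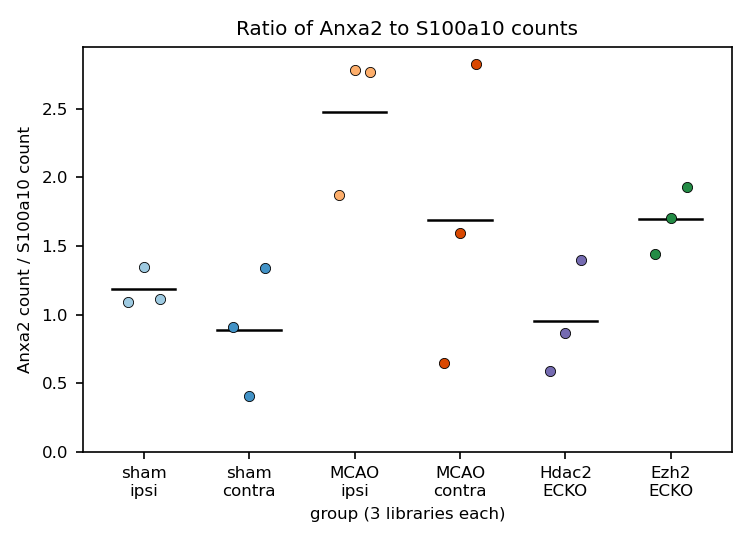
Ratio of Anxa2 to S100a10 counts in each library (points) for the 6 groups, with the group mean as a bar, on a linear axis from 0. MCAO ipsilateral libraries (1.87 to 2.78) lie above sham ipsilateral (1.09 to 1.35) and above those labelled Hdac2 ECKO (0.586 to 1.40).

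Among the members, 2 sets varied most alike over the 18 libraries, as a description, made after the values were seen, of levels that share depth and background. S100a16, Anxa2, Anxa3 and Anxa5 formed 1 set, with Pearson r of log2 CPM from 0.790 (S100a16 with Anxa3) to 0.918 (S100a16 with Anxa5). S100a6, S100a10 and S100a11 formed the other, from 0.830 (S100a10 with S100a11) to 0.855 (S100a6 with S100a11), and S100a11 was also close to S100a16 (0.811). Over all 36 pairs r ran from 0.146 (S100a13 with Anxa2) to 0.918, with a median of 0.630. With group means removed, S100a16 and Anxa2 kept an r of 0.923, and S100a6 and Anxa2 had 0.228. In the set of S100a6, S100a10 and S100a11, r was then lower. It was 0.663 for S100a6 with S100a11, 0.760 for S100a6 with S100a10 and 0.651 for S100a10 with S100a11. S100a11 with S100a13 went the other way, from 0.638 to 0.797. Among neighbours on chromosome 3, S100a10 and S100a11 gave 0.830, S100a6 gave 0.634 with S100a16 and 0.582 with S100a13, and S100a13 and S100a16 gave 0.242. Of 7805 other genes averaging 10 CPM or more, the closest to S100a6 were Bcl7b (r 0.934), AI413582 (0.877), Ppp1r10 (0.859), Crip1 (0.852) and 1110008P14Rik (0.851). All 5 had their highest group mean under the Hdac2 ECKO label and their lowest under the Ezh2 ECKO label. Their r therefore includes the contrast that chose S100a6 and is a description. It was not computed for them with group means removed. By Spearman's rho none of these 5 was among the 5 closest, and without MCAO contralateral replicate 1 only 2 of them were.

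Other genes of the families gave little beside the members. Of 11 other S100 genes, 6 were tested and none was called in any comparison. S100a1, known from muscle, was the most abundant (mean 434 CPM) and S100a4 was next at 4.59 CPM. S100a8 and S100a9, the calprotectin subunits of neutrophils, stood at means of 1.59 and 1.17 CPM. S100a8 was at 5.63 ± 4.20 CPM in sham ipsilateral and 0.302 ± 0.485 in MCAO ipsilateral (SD, n = 3 each). S100a9 was at 4.33 ± 4.09 and 0.523 ± 0.750 CPM. The summed neutrophil markers, which leave out both genes, were instead higher in MCAO ipsilateral. Under the Hdac2 ECKO label S100a1 was at 0.96 ± 0.37 (adjusted p = 0.431), and under the Ezh2 ECKO label at -0.20 ± 0.37 (adjusted p = 0.765). Of 8 other annexins 6 were tested and none was called. Anxa7 and Anxa4 led them at means of 141 and 90.4 CPM, and Anxa4 was at -1.04 ± 0.36 under the Ezh2 ECKO label (adjusted p = 0.122).

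Partners, receptors and repair genes were not called either. Of 12 listed partners 11 were tested. Cacybp, the calcyclin-binding protein, which binds S100a6 and takes part in a ubiquitin ligase complex, was at 1.79 ± 0.46 in MCAO against sham ipsilateral (adjusted p = 0.489), at -1.19 ± 0.45 under the Hdac2 ECKO label (0.426) and at -1.48 ± 0.45 under the Ezh2 ECKO label (0.0878). The same comparisons gave 1.61, -1.23 and -2.10 for Anxa2. Ahnak is the giant scaffold bound by the complex of S100a10 and Anxa2. It was at 0.31 ± 0.30 under the Ezh2 ECKO label (adjusted p = 0.546, edgeR's quasi-likelihood test), where Anxa2 was lower. Of 5 receptors 3 were tested: Tlr4 had a mean of 6.34 CPM and Ager, the receptor for advanced glycation end products that several S100 proteins bind, 0.942 CPM. Of 14 genes of membrane repair 13 were tested, led by Cav1 (592 CPM) and Sri (552 CPM), and these 2 were at -0.40 ± 0.34 and -0.81 ± 0.33 under the Ezh2 ECKO label (adjusted p = 0.499 and 0.184).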

How the data were processed

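The authors deposited 1 table of read counts per gene (21638 genes, 18 libraries). Its name calls the values normalized, but they are whole numbers with unequal library totals, so they were treated as unscaled counts. Among low counts, 77.3% to 89.4% per library were even. Whether fragments were counted more than once was not tested, so counts given here may exceed the number of fragments. The submitters' processing notes name FastQC, cutadapt, STAR, featureCounts, DESeq2 and the build mm10; roles, versions and strand setting are not given in the sources used here. Of 21636 distinct symbols, 21442 rows matched a GENCODE M21 gene (GRCm38) on the same chromosome, from which positions were taken, counted from 1. A total of 0 columns were left without a sample.

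A gene entered the test where 3 or more libraries had 10 or more counts, which left 17094. They were compared by quasi-likelihood F-tests after TMM scaling (edgeR 4.0.16, R 4.3.3), in 1 fit of 6 group means to all 18 libraries. Adjusted p-values are Benjamini-Hochberg values over all tested genes, and a gene was called under 0.05. The SE is the log2 fold change over the square root of F, and 95% intervals are normal. Alternatives were RLE scaling, no filter, DESeq2 1.42.0, a replicate block, receptor background as a covariate and each library left out; leaving out the 2 libraries of highest background was added after the values were seen.

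The members and the lists of relatives, partners, receptors, repair genes and markers were chosen with earlier results of these data known. Named beside the members were Hdac2 and Ezh2, the 2 most abundant genes of each list, and the 5 genes most correlated with S100a6. S100a8, S100a9 and the genes of the marker sentences were named after their values were seen, as was the Anxa2 to S100a10 ratio. The labels give no batch. Depth, from 25791401 to 57576255 counts, left the smallest count of a member at 202.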

Additional observations from a re-analysis of the deposited data

Results flagged for a closer look

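The level of S100a6 was higher in the libraries labelled Hdac2 ECKO than in those labelled Ezh2 ECKO by 3.73 on the log2 scale. It stands out because all 3 libraries with the first label (67.1 to 318 CPM) lay above all 3 with the second (5.65 to 22.8 CPM), while against MCAO ipsilateral the values were 1.14 and -2.59. S100a6 was chosen for this difference, which was therefore not tested here. The library labelled Hdac2 ECKO replicate 1 sets much of its size, and the value is 2.73 without it; it is 4.55 without the one labelled Ezh2 ECKO replicate 1.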

How the results depend on the processing

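Counts of called genes moved with the tool and the settings. DESeq2 called 69 genes for MCAO against sham ipsilateral (main value 0), 26 for the contralateral side (0), 337 over both sides (26), 6 for MCAO ipsilateral against contralateral (0), 6 for the sham sides (0), 6 for the interaction (0), 244 under the Hdac2 ECKO label (2), 1642 under the Ezh2 ECKO label (250) and 659 between the labels (21). Without the filter, 2 genes were called for MCAO against sham ipsilateral and 38 between the labels. RLE scaling gave 40 over both sides and 4 under the Hdac2 ECKO label. With receptor background as a covariate the counts were 1 for MCAO against sham ipsilateral, 99 over both sides, 10 under the Hdac2 ECKO label, 13 under the Ezh2 ECKO label and 54 between the labels. Without the 2 libraries of highest background they were 13, 498, 62, 1000 and 115 in that order, and 1 on the contralateral side. Leaving out 1 library at a time gave 0 to 266 genes over both sides, 0 to 1 contralaterally, 0 to 18 under the Hdac2 ECKO label, 5 to 298 under the Ezh2 ECKO label and 9 to 73 between the labels.

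Of the 8 members other than S100a6, 3 were called under the Ezh2 ECKO label, against 5 with DESeq2, 0 with the background covariate, 0 with the replicate block and 0 to 4 with 1 library left out. Over both sides 0 of 9 were called, 1 (Anxa2) without the 2 libraries of highest background, and 0 to 1 with 1 library left out. The replicate block (numbers from the titles) gave 4 genes over both sides, 12 under the Ezh2 ECKO label and 9 between the labels, and under the Ezh2 ECKO label Anxa2 had an adjusted p of 0.0652, Anxa5 0.0706 and S100a16 0.0809. Same-numbered sides deviated with correlations of 0.365, 0.346 and -0.124 in sham and 0.277, 0.361 and 0.0360 in MCAO, and only numbers 1 and 2 correlated best with their own, so the numbers were not taken to pair the samples.

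Signs turned only for members whose log2 fold change was at most 0.35 in size. Under the Ezh2 ECKO label Anxa1 was at 0.0148 with DESeq2 and with RLE scaling, 0.44 with the covariate and 0.23 without the 2 libraries (-1.15 to 0.19 with 1 library left out), and S100a13 at -0.23 to 0.58. Under the Hdac2 ECKO label S100a10 ran from -0.22 to 0.65 and S100a11 from -0.30 to 0.52 with 1 library left out. On the contralateral side S100a11 was at 0.11 with the covariate, 0.0096 with the block and 0.21 without the 2 libraries (-0.42 to 0.24 left out singly), and Anxa1 ran from -0.41 to 0.77, Anxa5 from -0.12 to 0.49 and S100a16 from -0.27 to 0.65. Over both sides S100a13 was at 0.0042 with DESeq2 and with RLE scaling and 0.035 without the 2 libraries (-0.16 to 0.15), and S100a10 at -0.0095 without the filter (-0.031 to 0.30). For MCAO ipsilateral against contralateral, S100a6 was at -0.14 with the covariate, Anxa1 at 0.11 and Anxa3 at 0.060 without the filter, and Anxa1 at 0.074 with the block. Without the 2 libraries S100a11 was at -0.014, S100a16 at -0.37 and Anxa5 at -0.12. With 1 library left out the ranges there were -0.039 to 0.59 for S100a11, -0.39 to 0.51 for S100a16, -0.14 to 0.48 for Anxa5, -0.44 to 0.75 for Anxa1, -0.20 to 0.25 for Anxa3, -0.39 to 0.19 for S100a10 and -0.26 to 0.17 for S100a13. The cause of these shifts was not tested.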

Other observations

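The ratio of S100a6 to S100a13 counts, 2 neighbouring genes, is independent of library scaling and is given as a description. It was 0.0996, 0.106 and 0.0890 in MCAO ipsilateral libraries and 0.101, 0.0741 and 0.0694 in MCAO contralateral ones. In sham libraries it was 0.0768, 0.0223 and 0.0298 on the ipsilateral side and 0.0604, 0.0444 and 0.0445 on the contralateral side, so that every occluded WT library but 2 lay above every sham library. The libraries labelled Hdac2 ECKO gave 0.154, 0.0677 and 0.0983. Those labelled Ezh2 ECKO gave 0.0166, 0.0212 and 0.00641, the lowest 3 of the 18.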
